A study of Mus musculus with 6 samples.

Results

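The nuclear hormone receptor family was examined as 40 genes chosen by symbol, out of 41214 genes counted in mouse mammary tumour explant cells. The tested cells carried a short hairpin RNA against CdGAP (shCdGAP, genotype label CdGAP KD, 3 libraries) and the control cells a control hairpin (shCTL, genotype label WT, 3 libraries). All of the cells were explanted from mammary tumours of NMuMG origin (NMuMG is an epithelial cell line of the normal mouse mammary gland), and all express ErbB2, a receptor tyrosine kinase that can drive such tumours. CdGAP, the product of Arhgap31, switches off the GTPases Cdc42 and Rac1, and the series title asks how it acts with the repressor Zeb2 on transcription of E-cadherin. The labels do not give the hairpin sequences, the number of clones or the origin of the replicates, and the p-values therefore reflect variation among these 6 libraries, part of which may be technical.

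Nuclear receptors are transcription factors with a zinc finger domain that binds DNA and a ligand pocket, and many switch genes on or off when a small lipophilic molecule enters that pocket. Steroid receptors answer to sex steroids and corticoids, and other classes answer to thyroid hormone, vitamin D, retinoids, fatty acids, oxysterols, bile acids or haem, while orphan receptors were named before any ligand was known. In the mammary gland the oestrogen and progesterone receptors mark hormone-sensing luminal cells, and the glucocorticoid receptor takes part in the switch to milk production. The 40 genes fell into 5 steroid receptors, 3 receptors for thyroid hormone or vitamin D, 6 retinoid receptors (the RAR and RXR genes), 6 receptors for lipids and bile acids (the PPAR genes, Nr1h2, Nr1h3 and Nr1h4), 3 receptors that act in the circadian clock and 17 orphan or adopted receptors.

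Total counts ran from 22088774 to 25893195 in shCdGAP libraries and from 19176540 to 26824249 in shCTL libraries. Levels are counts per 1000000 after TMM scaling of the libraries (CPM), and a gene with no count in a library could have been at 0.109 to 0.155 CPM there (3 counts), by counting error alone. Arhgap31 (GRCm38 chromosome 16, 38598340 to 38713274) was at 1.70, 9.16 and 8.21 CPM in shCdGAP replicates 1 to 3, against 13.2, 14.4 and 15.1 CPM in shCTL replicates 1 to 3. All 3 shCdGAP libraries were below every shCTL library, and the log2 fold change of −1.16 ± 0.55 (SE) did not pass the test (edgeR adjusted p = 0.19). shCdGAP replicate 1 stood apart from its replicates in Arhgap31 and in many receptors, and without it Arhgap31 passed (−0.71, adjusted p = 0.00407). Epithelial keratins were abundant in both groups (Krt8 at 4473 ± 1406 CPM in shCdGAP and 3611 ± 805 CPM in shCTL). Of 7 tested epithelial markers 2 rose and 2 fell, where 10.4% of all tested genes rose and 11.4% fell. Cdh1, of E-cadherin (768 ± 85.3 CPM in shCdGAP and 232 ± 51.5 CPM in shCTL), and Krt7 rose, and Epcam and the basal keratin gene Krt5 fell. The Krt7 call was lost without any 1 of the shCTL libraries or shCdGAP replicate 2 (edgeR adjusted p 0.0560 to 0.0770). The summed level of the 8 listed markers was 7176 to 10980 CPM in shCdGAP libraries and 5906 to 8416 CPM in shCTL libraries. Epcam had 0 counts in shCdGAP and 92 in shCTL, and the basal keratin Krt14 had 1 and 3. Epcam and Krt5 passed the filter on low counts only through shCTL, so both falls among these markers rest on that group. The summed level of 16 markers of leukocytes, endothelium, fibroblasts and adipocytes was 5.39 to 8.85 CPM in shCdGAP libraries and 7.03 to 8.05 CPM in shCTL libraries. Adgre1 of macrophages and Plin1 of adipocytes were at 0 counts in all 6 libraries, and of the 3 such markers that could be tested Itgam was higher in shCdGAP (98 counts against 15). Itgam passed the filter only through shCdGAP, so its call rests on that group. In bulk RNA, fewer cells of a type and less RNA per cell cannot be told apart.

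The start regions of receptor genes that changed are printed first, since the study's question concerns repression at promoters. RefSeq start regions on GRCm38.p6, each running from 250 bases before to 50 bases after a start site, were at hand for 37 of the 40 genes and gave 57 windows. Thra, which rose, is not among the genes with a window. Capitals mark the hexamer AGGTCA, which many receptors bind, read on either strand. The 4 windows belong to Nr1h4, Esr1, Nr1d1 and Nr2f6, and of the pair of Esr1 windows the upstream one is shown. The Nr1h4 window is at a start site inside the gene model, whose upstream end is at 89533585, and no window covers that end.
Nr1h4 promoter, chr10:89506609-89506908, minus strand: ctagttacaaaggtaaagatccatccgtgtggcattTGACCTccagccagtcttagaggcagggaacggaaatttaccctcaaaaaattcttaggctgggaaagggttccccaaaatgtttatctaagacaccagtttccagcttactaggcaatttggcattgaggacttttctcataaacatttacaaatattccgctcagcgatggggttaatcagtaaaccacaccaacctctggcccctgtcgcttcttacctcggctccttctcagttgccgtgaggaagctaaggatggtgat
Esr1 promoter, chr10:4611739-4612038, plus strand: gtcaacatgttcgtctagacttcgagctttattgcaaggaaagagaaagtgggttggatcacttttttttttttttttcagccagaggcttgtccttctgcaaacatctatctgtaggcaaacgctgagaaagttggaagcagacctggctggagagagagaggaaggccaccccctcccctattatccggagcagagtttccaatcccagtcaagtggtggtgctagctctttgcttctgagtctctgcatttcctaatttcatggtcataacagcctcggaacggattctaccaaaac
Nr1d1 promoter, chr11:98775328-98775627, minus strand: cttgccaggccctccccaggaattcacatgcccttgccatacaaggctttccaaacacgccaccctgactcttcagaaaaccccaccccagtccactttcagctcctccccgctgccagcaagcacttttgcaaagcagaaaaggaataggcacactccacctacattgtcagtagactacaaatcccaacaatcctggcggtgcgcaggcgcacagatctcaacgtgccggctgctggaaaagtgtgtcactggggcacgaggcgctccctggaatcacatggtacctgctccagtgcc
Nr2f6 promoter, chr8:71381903-71382202, minus strand: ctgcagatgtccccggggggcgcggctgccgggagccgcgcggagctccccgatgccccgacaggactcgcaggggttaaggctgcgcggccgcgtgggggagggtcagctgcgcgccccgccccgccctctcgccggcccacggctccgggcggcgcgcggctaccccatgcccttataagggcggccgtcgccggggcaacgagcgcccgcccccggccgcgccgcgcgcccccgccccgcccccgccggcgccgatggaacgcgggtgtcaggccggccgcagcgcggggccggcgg
The E-box CACCTG, which ZEB and SNAIL factors bind, was in none of the 7 windows of 5 of the 6 called genes (these 4 and Rxra), counted on both strands, and neither were the clock E-box CACGTG and the cAMP response element TGACGTCA. No match says only that these letters are not in these windows. CACCTG was in 13 of the 57 receptor windows (22.8%), against 20.2% of all 32851 windows of the same length. AGGTCA was in 12 of the 57 (21.1%), against 16.3% of all windows, with 1 match in Nr1h4 at position −214 from the start site and 2 in the downstream Rxra window at −87 and −48. CACGTG was in 5 windows (8.77%, against 7.15%) and TGACGTCA in 1 window, of Nr6a1 (1.75%, against 1.79%). The Nr2f6 window was 82.7% G and C, against 45.7% for Nr1h4, 56.3% for Nr1d1 and 46.3% for the Esr1 window shown. The upstream window of Rxra, which fell, was slightly richer in G and C than that of Nr2f6. The share therefore did not set the risen Nr2f6 apart from all fallen genes. The downstream windows of Rxra and Esr1 lay between the values for Nr1h4 and Nr2f6.

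Of the 40 receptor genes 29 had enough counts to be tested, and 2 of them rose and 4 fell in shCdGAP cells. Thra and Nr2f6 rose, and Esr1, Rxra, Nr1h4 and Nr1d1 fell. These 6 calls are 20.7% of the tested receptors, and over all 13483 tested genes 21.7% were called (10.4% risen and 11.4% fallen), so the share of receptors called was near that of all genes. The median log2 fold change was −0.02 over the 29 receptors and 0.01 over all tested genes. By class, 0 of 3 tested steroid receptors rose and 1 fell, and of 3 tested thyroid hormone and vitamin D receptors 1 rose and 0 fell. Of 4 tested retinoid receptors 0 rose and 1 fell, of 6 lipid receptors 0 rose and 1 fell, of 3 clock receptors 0 rose and 1 fell, and of 10 tested orphan receptors 1 rose and 0 fell. The levels of 13 of the 29 did not overlap between groups, against 44.1% of all tested genes.

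**Figure D1:**
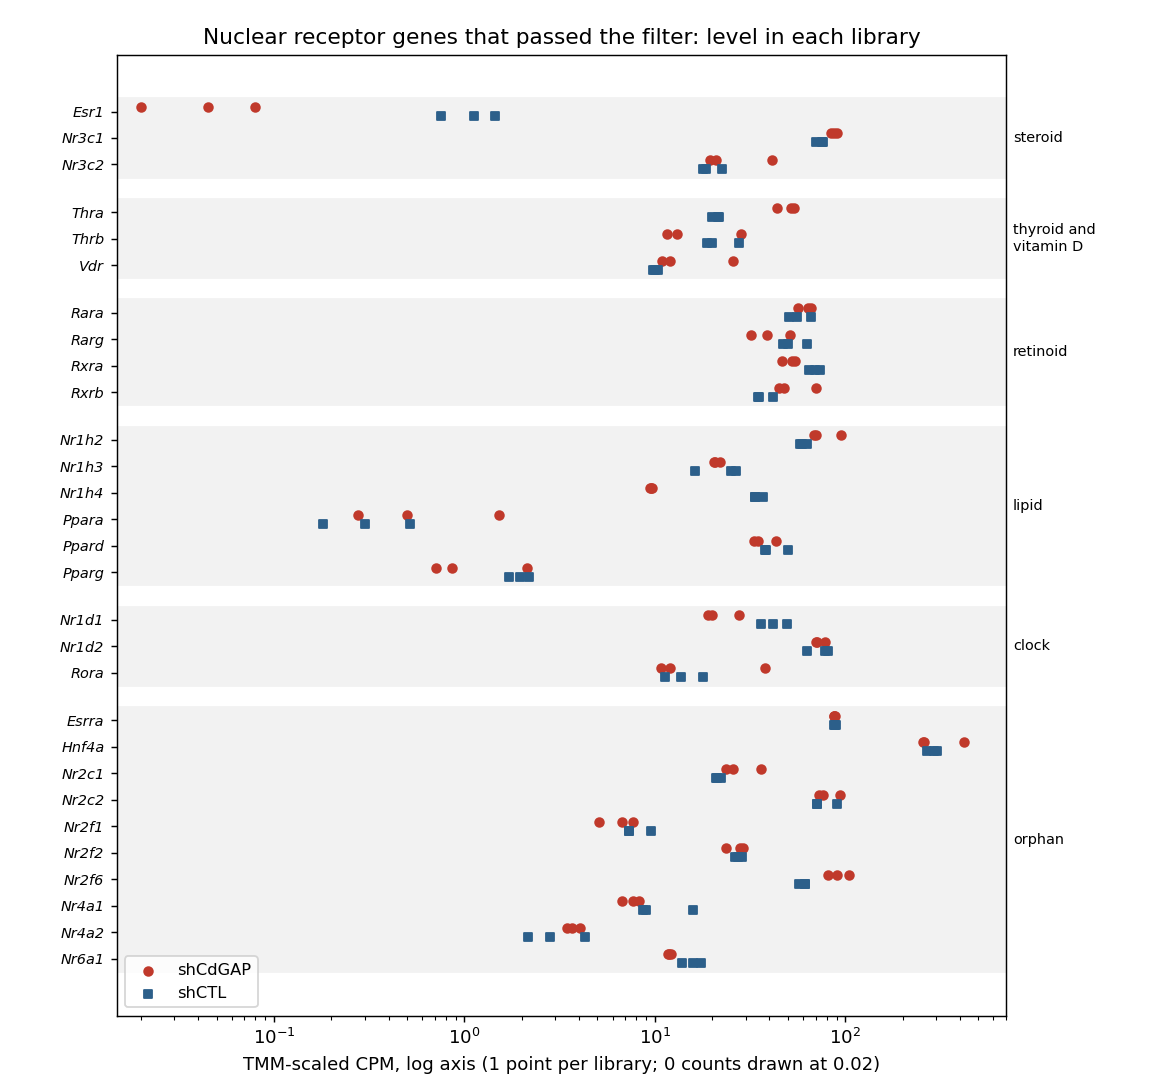
TMM-scaled CPM (log axis) of each receptor gene that passed the filter on low counts, by class, with 1 point per library (shCdGAP red circles, shCTL blue squares). Hnf4a was the most abundant by this scale, at 257 to 421 CPM in shCdGAP and 270 to 305 CPM in shCTL, and Esr1 lay below 0.08 CPM in shCdGAP.

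Per length of exon, which allows levels of different genes to be compared, Hnf4a stood first in both groups. Hnf4a encodes a fatty acid binding receptor best known from liver, gut and kidney epithelium, and it averaged 64.6 ± 19.5 RPKM (CPM per kb of exon) in shCdGAP and 59.9 ± 3.66 RPKM in shCTL (SD, n = 3 each). It made up 25.0, 18.8 and 18.7% of the summed RPKM of the 40 genes in shCdGAP replicates 1 to 3, and 18.6, 20.9 and 21.1% in shCTL replicates 1 to 3. Esrra, an oestrogen-related orphan receptor of mitochondrial metabolism, came next at 34.5 ± 0.362 RPKM in shCdGAP and 34.9 ± 0.462 RPKM in shCTL, followed by Nr2f6 (30.8 ± 4.08 RPKM in shCdGAP and 20.1 ± 0.878 RPKM in shCTL) and the oxysterol receptor gene Nr1h2 (23.1 ± 4.38 RPKM in shCdGAP and 17.8 ± 0.724 RPKM in shCTL). The first 4 places were the same in both groups. Nr1h4 was in place 19 in shCdGAP and 5 in shCTL, and Thra in place 9 in shCdGAP and 18 in shCTL. Nr1h4, Nr1d2, Nr1d1, Rara, Rarg and Rxra held places 5 to 10 in shCTL, between 12.6 and 15.1 RPKM, where neighbours differed by less than their SD.

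Among steroid receptors the gene of oestrogen receptor alpha was low in shCTL cells and near 0 in shCdGAP cells. Esr1 (ENSMUSG00000019768, chromosome 10, 4611593 to 5005614, plus strand) had 0, 1 and 2 counts in shCdGAP replicates 1 to 3, against 28, 31 and 20 counts in shCTL replicates 1 to 3. These are 0, 0.0453 and 0.0793 CPM in shCdGAP and 1.44, 1.13 and 0.752 CPM in shCTL, with no overlap. With 3 counts in shCdGAP against 79 in shCTL, shCTL was higher by a ratio of 25.0 (exact 95% binomial interval 8.24 to 124, which covers counting error in the summed libraries only), and the edgeR adjusted p was 0.00423. Esr1 passed the filter only through its shCTL counts, and its fitted fold change depends on the prior count.

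Glucocorticoid and mineralocorticoid receptor genes did not pass. Nr3c1, the glucocorticoid receptor gene, was at 91.0, 87.3 and 83.9 CPM in shCdGAP replicates 1 to 3, against 70.2, 76.6 and 75.7 CPM in shCTL replicates 1 to 3. The groups did not overlap, but the log2 fold change of 0.24 ± 0.0941 missed the threshold (adjusted p = 0.128). Nr3c2, the mineralocorticoid receptor gene, was at 41.1, 20.9 and 19.5 CPM in shCdGAP and at 22.5, 18.6 and 17.8 CPM in shCTL (log2 fold change 0.47 ± 0.309, adjusted p = 0.339). Only shCdGAP replicate 1 was high, and without that library the log2 fold change was 0.05. Esr2 and Pgr, the genes of oestrogen receptor beta and the progesterone receptor, had 0 counts in all 6 libraries.

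Thra, the gene of thyroid hormone receptor alpha, more than doubled in shCdGAP cells. It was at 53.8, 51.8 and 43.6 CPM in shCdGAP replicates 1 to 3, against 21.6, 21.4 and 20.0 CPM in shCTL replicates 1 to 3. The lowest shCdGAP library was above the highest shCTL library by far more than the SD within either group (49.7 ± 5.38 CPM in shCdGAP and 21.0 ± 0.890 CPM in shCTL, n = 3 each). The rise was 2.37-fold (log2 fold change 1.24 ± 0.127, edgeR adjusted p = 0.00139). Thrb, the gene of the beta receptor, was at 28.2, 13.1 and 11.7 CPM in shCdGAP and 27.8, 18.7 and 19.9 CPM in shCTL, so that replicate 1 was the highest library in each group (log2 fold change −0.32 ± 0.37, adjusted p = 0.587). Vdr, the vitamin D receptor gene, was at 25.7, 10.9 and 12.0 CPM in shCdGAP and 9.75, 10.3 and 9.97 CPM in shCTL (log2 fold change 0.69 ± 0.343, adjusted p = 0.209), again with shCdGAP replicate 1 far above its replicates.

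**Figure D2:**
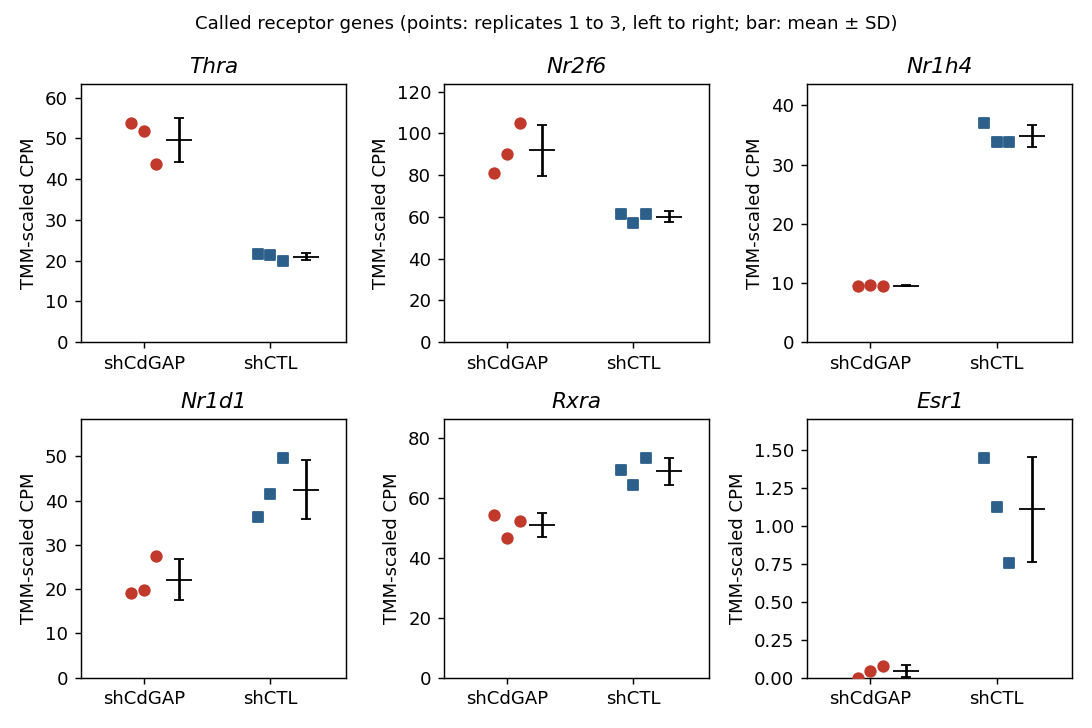
TMM-scaled CPM of the 6 called receptor genes in each library, shCdGAP on the left and shCTL on the right of each panel, with the mean ± SD (n = 3). In each panel the groups do not overlap: Thra lies at 43.6 CPM or above in shCdGAP and at 21.6 CPM or below in shCTL, and Nr1h4 at 9.61 CPM or below in shCdGAP and at 33.7 CPM or above in shCTL.

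Of the 4 tested retinoid receptor genes only Rxra, of the common partner RXR alpha, was called. RXR proteins pair with the receptors of thyroid hormone, vitamin D, retinoic acid and lipids. Rxra (chromosome 2, 27676440 to 27762957) was at 54.4, 46.6 and 52.2 CPM in shCdGAP replicates 1 to 3, against 69.5, 64.3 and 73.2 CPM in shCTL replicates 1 to 3, a fall of 0.43 on the log2 scale (SE 0.112, edgeR adjusted p = 0.0367). Each fit of 5 libraries that included shCdGAP replicate 1 lost the call (adjusted p 0.0753 to 0.159) and with no filter on low counts (0.0642). Rxrb was at 70.4, 48.0 and 45.1 CPM in shCdGAP, all above the 41.5, 34.7 and 35.2 CPM in shCTL, but missed the threshold (log2 fold change 0.55 ± 0.198, adjusted p = 0.0985).

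The retinoic acid receptor genes Rara and Rarg overlapped between groups. Rara was at 63.5, 66.0 and 56.1 CPM in shCdGAP and 66.1, 55.7 and 50.8 CPM in shCTL (log2 fold change 0.10 ± 0.136, adjusted p = 0.637). Rarg was at 51.6, 38.7 and 32.1 CPM in shCdGAP and 62.8, 50.2 and 47.1 CPM in shCTL (−0.39 ± 0.208, adjusted p = 0.243). Rarb, itself a classical retinoic acid target, had 0 counts in shCdGAP and 2 in shCTL, and Rxrg had 0 counts in all libraries.

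Of the lipid receptors Nr1h4, the gene of the bile acid receptor FXR, had the smallest p-value of the family. Nr1h4 (ENSMUSG00000047638, chromosome 10, 89454234 to 89533585, minus strand) was at 9.52, 9.61 and 9.48 CPM in shCdGAP replicates 1 to 3, against 37.0, 33.7 and 33.7 CPM in shCTL replicates 1 to 3. The libraries within each group lay close together (9.54 ± 0.0699 CPM in shCdGAP and 34.8 ± 1.88 CPM in shCTL), and shCdGAP replicate 1 did not stand apart. Nr1h4 fell by 1.87 on the log2 scale (SE 0.118, edgeR adjusted p = 0.000313), and shCTL was 3.65-fold higher. Nr0b2, the gene of SHP and in liver a direct FXR target, was too low to be tested, with 8, 8 and 13 counts in shCdGAP against 2, 1 and 4 in shCTL. With no filter on low counts its log2 fold change was 2.05 and did not pass (adjusted p = 0.0517).

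The oxysterol and fatty acid receptors were not called. Nr1h2, the gene of LXR beta, was at 94.7, 70.3 and 68.2 CPM in shCdGAP, above the 59.6, 57.8 and 62.6 CPM in shCTL (log2 fold change 0.37 ± 0.151, adjusted p = 0.134). Nr1h3, the gene of LXR alpha, was at 20.8, 22.1 and 20.5 CPM in shCdGAP and 16.3, 25.1 and 26.6 CPM in shCTL (adjusted p = 0.775), with shCTL replicate 1 below its replicates. Ppard, the widely expressed PPAR gene, was at 43.4, 35.0 and 33.0 CPM in shCdGAP and 50.1, 37.8 and 38.4 CPM in shCTL (adjusted p = 0.509). Pparg, the regulator of fat cell formation, was low, at 2.15, 0.862 and 0.714 CPM in shCdGAP and 1.96, 1.71 and 2.18 CPM in shCTL (log2 fold change −0.66 ± 0.443, adjusted p = 0.348). In shCdGAP only replicates 2 and 3 were below the shCTL range. Ppara, the PPAR of fatty acid oxidation in liver, had 34, 11 and 7 counts in shCdGAP and 10, 5 and 8 in shCTL (adjusted p = 0.286).

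Of the clock receptors only Nr1d1, the gene of the haem-binding repressor REV-ERB alpha, was called. Nr1d1 (ENSMUSG00000020889, chromosome 11, 98767932 to 98775333, minus strand) was at 19.1, 19.9 and 27.5 CPM in shCdGAP replicates 1 to 3, against 36.3, 41.5 and 49.5 CPM in shCTL replicates 1 to 3. It fell by 0.94 on the log2 scale (SE 0.197, edgeR adjusted p = 0.0186), and the call was lost without shCTL replicate 2 or 3 or shCdGAP replicate 2 (adjusted p 0.0709 to 0.0787). Its paralogue Nr1d2, of REV-ERB beta, was at 70.4, 70.7 and 78.2 CPM in shCdGAP and 63.2, 77.9 and 81.0 CPM in shCTL (log2 fold change −0.02 ± 0.127, adjusted p = 0.94). Rora, whose product activates through the same DNA elements, was at 37.8, 12.0 and 10.7 CPM in shCdGAP and 18.0, 13.7 and 11.3 CPM in shCTL (0.49 ± 0.512, adjusted p = 0.548). For Rora shCdGAP replicate 1 was 3.32-fold above the mean of its replicates, and without it the log2 fold change was −0.32 (adjusted p = 0.241).

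Thra and Nr1d1 moved in opposite directions although their gene models overlap. Thra (ENSMUSG00000058756, chromosome 11, 98740638 to 98769006) lies on the plus strand, and its 3′ end shares 263 exonic bases with the 3′ end of Nr1d1 on the minus strand (98768157 to 98768419). The shared bases are 5.70% of the exonic length of Thra and 8.55% of that of Nr1d1. The counts were made with a strand setting, per the file headers, so reads of the 2 genes were counted apart, but they are totals per gene and do not separate the Thra isoform that reaches into the overlap from the one that ends before it.

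**Figure D3:**
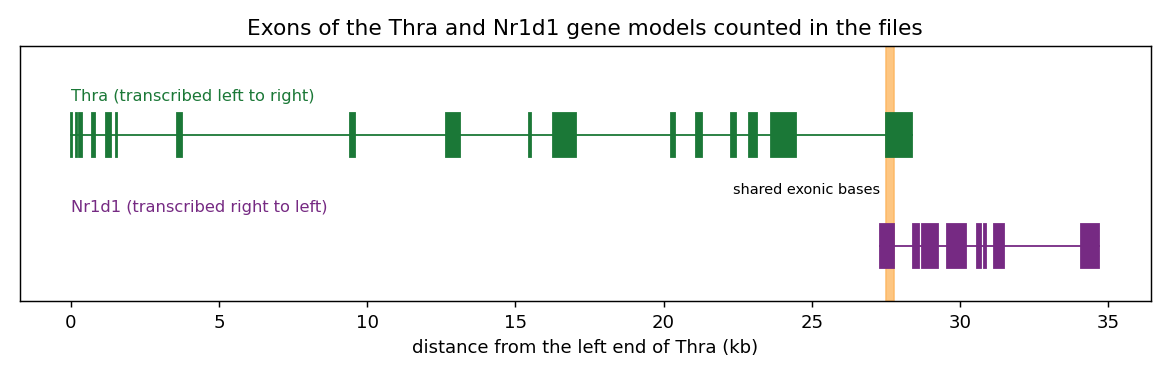
Exons (boxes) of the Thra and Nr1d1 gene models as counted, by distance in kb from the left end of Thra, with the strand of each gene in words. The orange band marks the 263 shared exonic bases at the facing 3′ ends.

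Among orphan receptors Nr2f6 rose, and the more abundant Esrra and Hnf4a did not pass. Nr2f6 (chromosome 8, 71374123 to 71381960) encodes EAR2, a COUP-TF relative that represses transcription, and was at 80.8, 90.0 and 105 CPM in shCdGAP replicates 1 to 3, against 61.5, 56.9 and 61.5 CPM in shCTL replicates 1 to 3. The groups did not overlap, and the rise was 1.53-fold (log2 fold change 0.62 ± 0.125, edgeR adjusted p = 0.0165). The call was lost without any 1 of the shCTL libraries or without shCdGAP replicate 2 (adjusted p 0.0572 to 0.0893). Esrra was at 86.8, 87.1 and 88.5 CPM in shCdGAP and 88.2, 87.7 and 89.9 CPM in shCTL, with a log2 fold change of −0.02 ± 0.0847 (adjusted p = 0.91). Hnf4a was at 421, 258 and 257 CPM in shCdGAP and 270, 292 and 305 CPM in shCTL (0.11 ± 0.211, adjusted p = 0.76), so shCdGAP replicate 1 was above and its replicates below the shCTL range.

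The COUP-TF, testicular receptor and germ cell factor genes were not called either. Nr2f1 and Nr2f2, which encode the COUP-TFs proper, had log2 fold changes of −0.31 ± 0.22 (adjusted p = 0.381) and −0.03 ± 0.129 (adjusted p = 0.883). Nr2c1, of the testicular receptor TR2, was at 36.2, 25.6 and 23.6 CPM in shCdGAP, above the 22.1, 20.8 and 21.1 CPM in shCTL (0.41 ± 0.186, adjusted p = 0.171), and Nr2c2, of TR4, overlapped (0.06 ± 0.153, adjusted p = 0.818). Nr6a1, a factor of germ cells and early embryos, was at 12.2, 11.7 and 11.9 CPM in shCdGAP, below the 17.5, 13.9 and 15.8 CPM in shCTL (−0.40 ± 0.143, adjusted p = 0.0983). Nr4a1, an immediate early receptor gene switched on by growth signals, was at 8.27, 7.71 and 6.70 CPM in shCdGAP and 15.9, 8.66 and 9.03 CPM in shCTL (−0.56 ± 0.274, adjusted p = 0.202). Its relative Nr4a2 was at 3.44, 3.67 and 4.04 CPM in shCdGAP and 4.28, 2.15 and 2.82 CPM in shCTL (0.28 ± 0.289, adjusted p = 0.548).

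The other 11 receptor genes had too few counts to be tested. Esr2, Pgr, Rxrg and Nr0b1, whose product is the adrenal and gonadal regulator DAX1, had no count in any library. Rarb, Hnf4g, Esrrb, Esrrg and Nr4a3 had 0 counts in shCdGAP and 1 to 7 in shCTL, summed over 3 libraries. Nr5a2, of the liver receptor homologue LRH-1, had 1, 1 and 12 counts in shCdGAP and 0 in shCTL, and with no filter on low counts it did not pass (adjusted p = 0.138).

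Of the single libraries left out, shCdGAP replicate 1 changed the number of receptors called most, as it did over all genes. In that library 6 of the 29 tested receptors, Ppara, Rora, Pparg, Thrb, Vdr and Nr3c2, were at least 2-fold above the mean of shCdGAP replicates 2 and 3, which holds for 11.6% of all tested genes. The ratio was 3.91 for Ppara, 3.32 for Rora, 2.72 for Pparg, 2.28 for Thrb, 2.24 for Vdr and 2.03 for Nr3c2. Arhgap31 was lowest in the same library, and whether the level of Arhgap31 bears on these receptors was not tested. shCTL replicate 1 also lay above the mean of shCTL replicates 2 and 3 for Ppara (2.14-fold), Rora and Thrb (1.44-fold each) and Nr3c2 (1.24-fold), but not for Pparg (1.01) or Vdr (0.96).

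Without shCdGAP replicate 1, 3 receptors rose and 8 fell, which is 37.9% of the 29, against 41.8% of all tested genes under the same setting. All 6 calls made on 6 libraries were kept. Rxrb rose (log2 fold change 0.34, edgeR adjusted p = 0.0391), and Pparg fell (−1.30, adjusted p = 0.00722), as did Thrb (−0.82, adjusted p = 0.00971), Rarg (−0.58, adjusted p = 0.0153) and Nr6a1 (−0.40, adjusted p = 0.0483). Without shCTL replicate 1, 2 or 3 the receptors called numbered 4, 3 and 3 of 29, where 13.4, 10.2 and 10.7% of all genes were called. Without shCdGAP replicate 2 or 3 they numbered 3 and 5, where 12.9 and 18.2% of all genes were called. Without both libraries numbered 1 they numbered 15 of 28, where 52.2% of all genes were called. Other scaling, DESeq2 and the replicate block each called 6 receptors, where 22.0, 23.2 and 20.4% of all genes were called, and no filter on low counts called 5 of 36 (13.2% of all genes). Thra and Nr1h4 were called in each of these fits, as was Esr1, whose call rests on its shCTL counts.

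**Figure D4:**
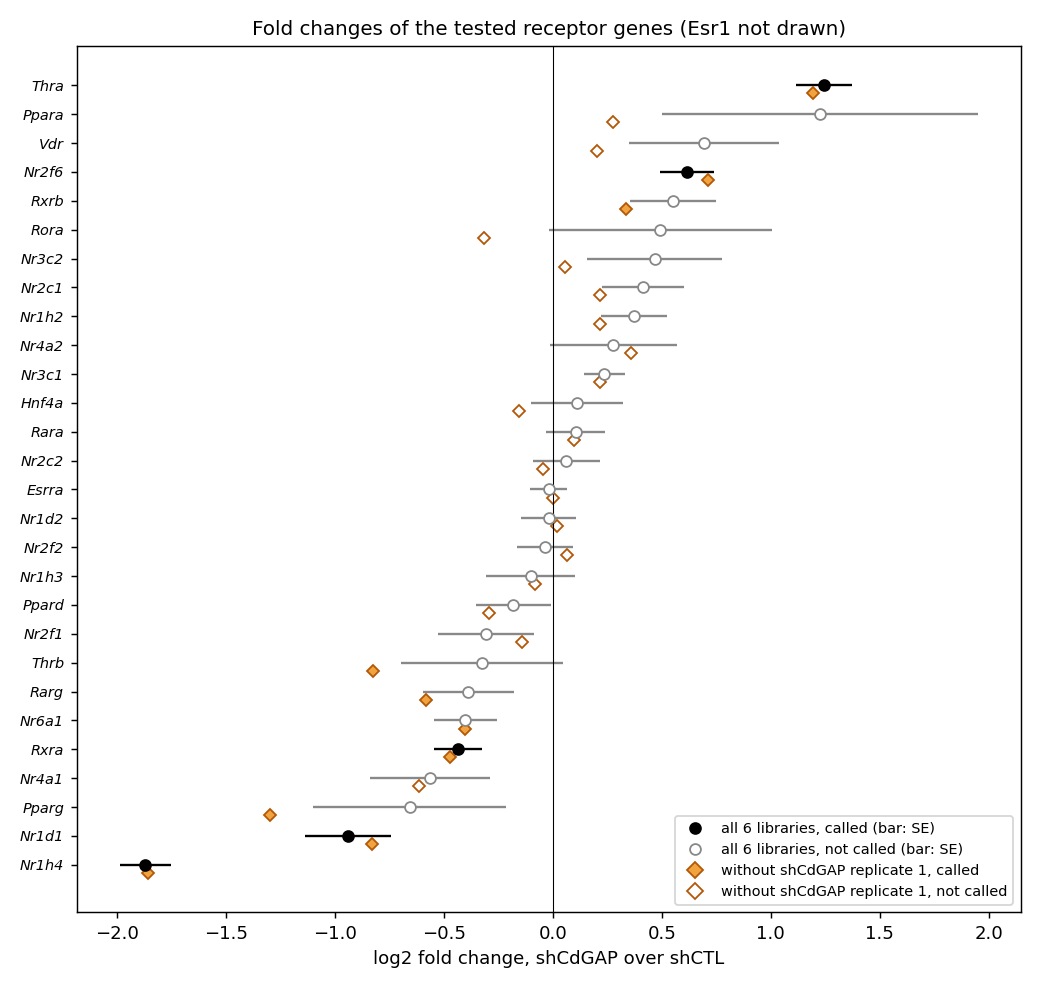
Log2 fold change, shCdGAP over shCTL, of each tested receptor gene except Esr1, with all 6 libraries (circles, bars SE, filled where called) and without shCdGAP replicate 1 (diamonds, filled where called). Rora lies at 0.49 with all libraries and at −0.32 without that library, while Nr1h4 lies at −1.87 and −1.85.

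Enzymes and carriers that supply the ligands changed in part. Of 12 tested genes of retinoid handling 2 rose and 4 fell (median log2 fold change −0.67, against 0.01 over all tested genes, of which 10.4% rose and 11.4% fell). Dhrs9, a retinol dehydrogenase gene, fell to 5.61 ± 0.409 CPM in shCdGAP, against 54.1 ± 13.6 CPM in shCTL (edgeR adjusted p = 0.000346), and Cyp26b1, which encodes an enzyme that degrades retinoic acid, to 4.38 ± 2.99 CPM, against 37.3 ± 9.63 CPM (adjusted p = 0.0176). Crabp1, a retinoic acid binding protein gene, had 0 counts in shCdGAP and 62 in shCTL, at least 19.6-fold lower by a floor of 3 counts over the group. Crabp1 passed the filter on low counts only through shCTL, so its call rests on that group. Rbp4, the retinol carrier gene, rose to 284 ± 40.2 CPM in shCdGAP, against 141 ± 3.57 CPM in shCTL, and Dhrs3, a retinal reductase gene, to 14.9 ± 6.08 CPM, against 4.11 ± 0.485 CPM. The fall of Cyp26b1 was no longer called without any 1 of the shCTL libraries or without shCdGAP replicate 2 (adjusted p up to 0.0647).

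Among 9 tested genes that handle thyroid hormone, steroids and vitamin D, 5 rose and 0 fell in shCdGAP (median log2 fold change 0.95), where 10.4% of all tested genes rose and 11.4% fell. Dio3, whose deiodinase inactivates thyroid hormone, was at 23.3 ± 2.87 CPM in shCdGAP and 0.224 ± 0.0682 CPM in shCTL (log2 fold change 6.64 ± 0.258, edgeR adjusted p = 9.61e-05). The thyroid hormone transporter gene Slc16a10 rose to 54.3 ± 9.85 CPM in shCdGAP, against 28.2 ± 1.27 CPM in shCTL (adjusted p = 0.00802). Hsd17b2 and Hsd17b4 also rose. In shCTL replicates 1 to 3, Dio3 had 3, 8 and 6 counts and Hsd17b2 1, 4 and 7. Both passed the filter on low counts only through shCdGAP, so their calls rest on that group. Dio1, whose deiodinase can activate the hormone, did not pass (1.62 ± 1.00 CPM in shCdGAP and 0.415 ± 0.186 CPM in shCTL, adjusted p = 0.054), and Dio2 had 1 count in each group.

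Of 21 tested coregulator genes 1 rose and 3 fell (median log2 fold change −0.05), near the 21.7% of all tested genes that were called. Nrip1, which encodes the ligand-dependent corepressor RIP140, fell to 25.4 ± 3.54 CPM in shCdGAP, against 53.5 ± 6.76 CPM in shCTL (log2 fold change −1.07, edgeR adjusted p = 0.00522). Crebbp, an acetyltransferase gene, fell to 31.2 ± 0.761 CPM in shCdGAP, against 40.6 ± 1.10 CPM in shCTL. Tbl1xr1, which encodes a subunit of corepressor complexes, rose to 63.0 ± 4.77 CPM, against 44.2 ± 5.30 CPM in shCTL. With the replicate number as a block Crebbp no longer passed (adjusted p = 0.067), and the coregulators that fell numbered 1. Of 9 chaperones of steroid receptors (median log2 fold change 0.24) Hsp90ab1 was the only call (3973 ± 547 CPM in shCdGAP and 2785 ± 34.9 CPM in shCTL, adjusted p = 0.0386). It did not pass with the block (0.0597), and its reads may be shared with processed copies. The calls of Crebbp and Hsp90ab1 were lost in each fit of 5 libraries that kept shCdGAP replicate 1 (adjusted p 0.0882 to 0.150), and that of Tbl1xr1 without shCTL replicate 2 or 3 or shCdGAP replicate 2 or 3 (0.0636 to 0.152). Without shCdGAP replicate 1, 4 coregulators rose and 8 fell, and 4 chaperones rose, where 41.8% of all genes were called.

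Genes known as receptor targets in other tissues went both ways in most lists. Of 10 tested glucocorticoid targets 3 rose and 3 fell (median log2 fold change 0.46), where 10.4% of all tested genes rose and 11.4% fell. Mt2 (63.1 ± 14.9 CPM in shCdGAP and 16.0 ± 5.51 CPM in shCTL), Mt1 and Tsc22d3, of the leucine zipper protein GILZ, rose, while Errfi1 (85.4 ± 10.9 CPM in shCdGAP and 341 ± 84.5 CPM in shCTL), the kinase gene Sgk1 and the clock gene Per1 fell. Calls were lost for Mt1 without any 1 of the shCTL libraries (adjusted p 0.0548 to 0.0775), for Tsc22d3 without any of these or shCdGAP replicate 2 (0.0731 to 0.171), for Sgk1 without shCTL replicate 2 or 3 or shCdGAP replicate 2 or 3 (0.0602 to 0.0835), and for Per1 without any 1 of the shCTL libraries or shCdGAP replicate 3 (0.0738 to 0.128). Of 10 tested PPAR targets 1 rose and 2 fell (median log2 fold change 0.04), where 21.7% of all tested genes were called. Angptl4, an inhibitor of lipoprotein lipase, fell to 15.8 ± 6.41 CPM in shCdGAP, against 84.7 ± 5.85 CPM in shCTL, and the lipid carrier gene Fabp4 to 0.377 ± 0.234 CPM, against 1.99 ± 0.599 CPM. Fabp4 passed the filter on low counts only through shCTL, so its call rests on that group. Vnn1, a pantetheinase gene, rose to 174 ± 43.7 CPM in shCdGAP, against 73.7 ± 20.4 CPM in shCTL. Vnn1 was not called without any 1 of the shCTL libraries (adjusted p 0.0546 to 0.061), nor Fabp4 without shCTL replicate 1 or 3 or shCdGAP replicate 2 (0.0638 to 0.0709). Without shCdGAP replicate 1, 5 PPAR targets fell, where 41.8% of all genes were called.

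Of 7 tested LXR targets 1 rose and 1 fell (median log2 fold change 0.45), where 21.7% of all tested genes were called. The cholesterol exporter gene Abca1 had 2 counts in shCdGAP against 85 in shCTL, higher in shCTL by a ratio of 40.3 (exact 95% binomial interval 10.8 to 338). Mylip, whose ligase degrades the LDL receptor, had 172 counts in shCdGAP against 2 in shCTL, a ratio of 90.7 (24.7 to 755). Both intervals cover counting error in the summed libraries only, and each gene passed the filter on low counts only through the group where it was high, so its call rests on that group. With the replicate block 2 LXR targets rose, and without shCdGAP replicate 1, 3 did, where 20.4% and 41.8% of all genes were called. Srebf1, a regulator of lipid synthesis, was at 173 ± 15.2 CPM in shCdGAP and 179 ± 30.8 CPM in shCTL (edgeR adjusted p = 0.851). Of 6 tested retinoic acid targets 2 rose and 1 fell (median log2 fold change −0.10), where again 21.7% of all tested genes were called, with the transglutaminase gene Tgm2 at 430 ± 12.9 CPM in shCdGAP and 152 ± 4.44 CPM in shCTL (adjusted p = 0.000254). Cyp26b1 and Dhrs3, given above, are on that list too.

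Of 10 listed oestrogen targets only 4 could be tested, and 3 of these fell and 1 rose (median log2 fold change −1.45), where 11.4% of all tested genes fell and 10.4% rose. The ErbB ligand gene Areg fell to 38.7 ± 13.7 CPM in shCdGAP, against 181 ± 47.5 CPM in shCTL (edgeR adjusted p = 0.00501), Car12, a carbonic anhydrase gene, had 5 counts against 134, and the cyclin gene Ccnd1 fell to 885 ± 212 CPM, against 1425 ± 34.5 CPM. Car12 passed the filter on low counts only through shCTL, so its call rests on that group. Xbp1, a factor of the secretory stress response, rose to 84.9 ± 6.45 CPM in shCdGAP, against 51.4 ± 8.68 CPM in shCTL. The Ccnd1 call was lost without any 1 of the shCTL libraries or shCdGAP replicate 2 (adjusted p 0.108 to 0.14) and with RLE scaling (0.0506), and the Xbp1 call without shCTL replicate 2 (0.0837) or 3 (0.0693). The pioneer factor gene Foxa1 fell to 7.12 ± 1.14 CPM in shCdGAP, against 32.2 ± 5.88 CPM in shCTL (adjusted p = 0.00103), and Gata3 did not pass (adjusted p = 0.8). The summed level of the 7 luminal hormone-sensing markers was 47.4 to 63.3 CPM in shCdGAP libraries and 180 to 284 CPM in shCTL libraries, most of it from Areg, and its part in the level of Esr1 was not tested.

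Of 13 tested clock partners 0 rose and 2 fell (median log2 fold change −0.40), where 21.7% of all tested genes were called. Bhlhe41, a clock repressor gene, fell to 43.6 ± 13.3 CPM in shCdGAP, against 105 ± 16.3 CPM in shCTL (edgeR adjusted p = 0.0127), and Per1 to 22.6 ± 4.28 CPM, against 35.8 ± 2.34 CPM (adjusted p = 0.0354). Arntl, which encodes the activator BMAL1 that REV-ERB alpha represses, was at 13.2 ± 1.37 CPM in shCdGAP and 19.6 ± 5.67 CPM in shCTL and was not called (adjusted p = 0.135). The Per1 call was lost with the replicate block (adjusted p = 0.0657), when 1 clock partner fell, and without shCdGAP replicate 1, 5 did, where 41.8% of all genes were called. The labels give no time of harvest.

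**Figure D5:**
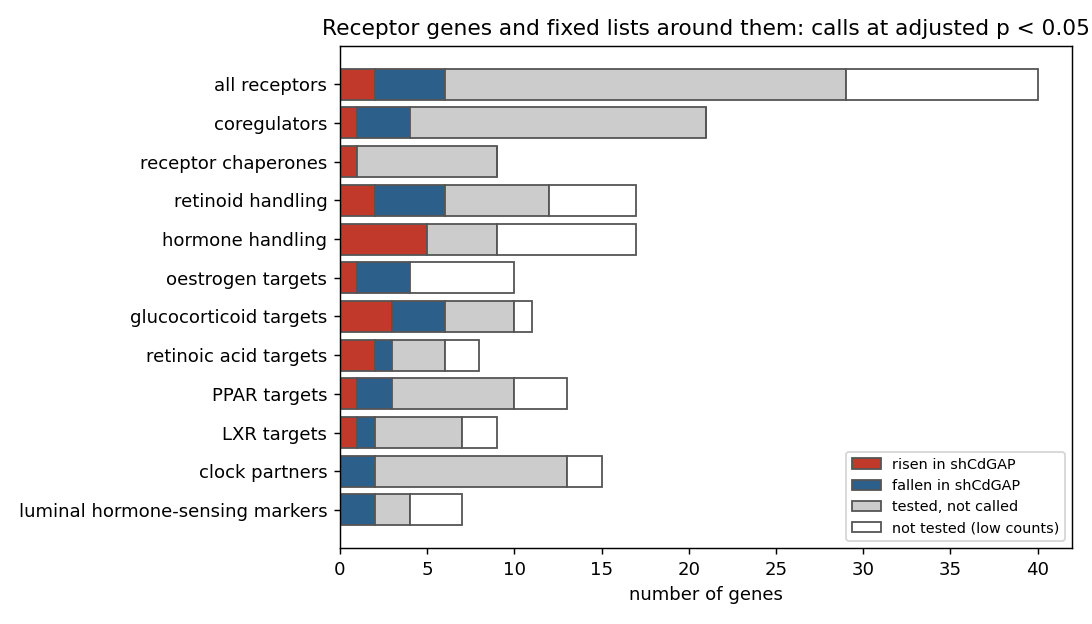
Number of genes risen, fallen, tested without a call and too low to be tested in shCdGAP against shCTL, for the 40 receptors and for lists of genes around them. Hormone handling has 5 risen and 0 fallen genes of 9 tested, and the receptors 2 risen and 4 fallen of 29 tested, where 10.4% of all tested genes rose and 11.4% fell. Of the risen hormone handling genes, Dio3 and Hsd17b2 passed the filter on low counts only through shCdGAP.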

How the data were processed

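Each library had a deposited file of raw counts, the number of fragments assigned to each gene. featureCounts 1.4.6, per the file headers, took as 1 count a pair aligned at both ends by TopHat, with the Ensembl release 77 annotation and the reverse-stranded setting. Build GRCm38 and the tools DESeq, Cuffdiff 2.2.1, TopHat2 2.0.14, Trimmomatic 0.30 and CASAVA 1.8 are named, with no role, in the submitters' processing notes. Exon lengths were deposited beside the counts. Symbols from GENCODE matched 40254 of 41214 genes, including all 40 receptors. The listed symbol Ca12 was found as Car12, and Sts was not matched.

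edgeR 4.0.16 in R 4.3.3 compared shCdGAP with shCTL on all 6 libraries, after filterByExpr (minimum count 10, minimum total 15) and TMM scaling, by the quasi-likelihood test with Benjamini-Hochberg adjustment over all 13483 tested genes. Calls required an adjusted p below 0.05. All adjusted p-values come from edgeR unless DESeq2 1.42.0 is named, and SE is the log2 fold change over the square root of F. Values ± SD have n = 3 per group. A fold against 0 counts uses a floor of 3 counts over the group. The steps were tested on simulated counts.

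The receptors, their classes and the lists were chosen with earlier results of these data known, so they give no independent support. Members of a list were named by smallest adjusted p, up to 3 in each direction, and other members were named after their values were seen. Some list members that this rule would name are not reported here. Lists share 11 of 150 symbols. The protein comparison that had been planned was not made, since no protein sequences were used here. Same-numbered libraries deviated together (correlations 0.36, 0.29 and 0.25 for numbers 1, 2 and 3), a pairing seen in the data and not stated in the labels. Crossed numbers 2 and 3 correlated about as well (0.25 and 0.19), so the data set only number 1 apart. The block is given where it changes a call. No 2 libraries agreed within counting noise (chi-square per degree of freedom at least 3.00 within groups). Other scaling, no filter, DESeq2, the replicate block and leaving out libraries were tried.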

Additional observations from a re-analysis of the deposited data

How the results depend on the processing

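Over all genes 1396 rose and 1534 fell. With 1 library left out these counts were 538 to 2753 and 856 to 3032, and the receptors called were 1 to 3 risen and 2 to 8 fallen, the highest without shCdGAP replicate 1. Without both libraries numbered 1, 3475 genes rose and 3640 fell, with 5 receptors risen and 10 fallen, 53.6% of 28 tested against 52.2% of all genes. There the log2 fold change of Hnf4a was −0.20 and was called (adjusted p = 0.0262), against 0.11 on all libraries. The cause was not tested. RLE scaling, DESeq2 and the replicate block kept all 6 receptor calls, with 2 risen and 4 fallen in each, and no filter on low counts lost Rxra. With the replicate block 1277 genes rose and 1468 fell, and no receptor call changed. Of the alternative values for single receptors, 280 kept their side of the threshold and their direction, 11 values of 6 uncalled receptors changed sign without a call, 13 lost a call, 13 gained one and 1 was called in the opposite direction. Other named genes lost a call in 63 values and gained one in 2. Over the fits with 1 library left out, 10.2 to 41.8% of all tested genes were called, the highest without shCdGAP replicate 1. With 1 library left out, coregulators numbered 0 to 4 risen and 1 to 8 fallen, retinoid handling genes 2 risen and 2 to 5 fallen, hormone handling genes 3 to 6 risen and 0 to 1 fallen, glucocorticoid targets 1 to 4 risen and 1 to 3 fallen, PPAR targets 0 to 1 risen and 1 to 5 fallen, LXR targets 1 to 3 risen and 1 fallen, retinoic acid targets 2 risen and 0 to 2 fallen, oestrogen targets 0 to 1 risen and 2 to 3 fallen, clock partners 0 to 1 risen and 1 to 5 fallen, and chaperones 0 to 4 risen. Depth limits the low receptors: 1 count was worth 0.0364 to 0.0516 CPM.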

Other observations

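Genes within 1 Mb of each called receptor were counted too, where 21.7% of all tested genes were called (10.4% risen and 11.4% fallen). Within 1 Mb of Nr1h4, in a window chosen after the data were seen, 4 of 10 other tested genes fell and 0 rose, with a median log2 fold change of −0.58, against 11.4% of all tested genes fallen. Chromosome 10 as a whole had 117 fallen and 46 risen genes of 642 tested. Within 1 Mb of Rxra, 7 of 26 tested genes fell and 0 rose, and chromosome 2 as a whole had 180 fallen and 49 risen genes of 1122 tested. Around Esr1 2 of 11 fell and 1 rose, around Nr1d1 4 of 35 fell and 4 rose, around Thra 6 of 37 fell and 3 rose, and around Nr2f6 5 of 58 fell and 9 rose. The shares called around Nr1d1, Thra and Nr2f6 were near that of all genes. The windows of Thra and Nr1d1 cover nearly the same genes and include each other. On chromosome 17, which holds Rxrb and Ppard, 164 of 651 tested genes rose and 37 fell, against 10.4% risen and 11.4% fallen over all genes. The log2 fold change was 0.55 for Rxrb, with no overlap between groups, and −0.18 for Ppard, and neither was called.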
